A study of Homo sapiens with 2 samples.

Results

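Membrane transporters of the ABC, SLCO, SLC10 and SLC22 families were examined in Huh-7 cells, an established human hepatocellular carcinoma line, with and without interferon-alpha. The genes were taken by symbol: those whose name in the platform annotation begins with ABCA, ABCB, ABCC, ABCD, ABCG, SLCO, SLC10A or SLC22A followed by a number, read by probe sets assigned to that gene alone. The rule found 76 of the 19777 genes so assigned, of which 71 code for transporter proteins and 5 are pseudogenes or an antisense RNA. RNA came from 2 flasks with 1 Affymetrix array each. The treated flask received fresh medium with 100 U/mL of recombinant human interferon-alpha 2b after 24 hours of incubation, and the exposure lasted 6 hours. The untreated flask had its medium exchanged without interferon, and no harvest time for it was found in the labels. With 1 array per condition no difference below has a replicate check, no test was possible and no p-value is given. The measured line is a tumour line, and its transporter RNA need not match that of hepatocytes.

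A hepatocyte moves bile acids, bilirubin, hormones and drugs from blood to bile. Uptake carriers of the SLC10, SLCO and SLC22 families sit on the blood-facing (basolateral) membrane. ABC transporters, which spend ATP, drive export across the canalicular membrane into bile or back across the basolateral membrane, and other ABC proteins work inside peroxisomes, mitochondria and lysosomes. Inflammatory cytokines are known to alter the RNA of several of these carriers in hepatocytes.

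Markers of the line, of other liver cell types and of the treatment were read first. The 9 hepatocyte and hepatoma markers with a probe set were all above the floor described next, with log2 ratios from 0.10 to 0.29. Among them, ALB had intensities of 12212 untreated and 14588 with interferon, and AFP had 11588 and 13478. Of all genes 67.1% were above the floor on 1 or both arrays, so reaching it does not by itself mark a cell type. Markers of other liver cell types were in part above the floor as well: 2 of 4 leukocyte markers (CD79A and CD14, but not PTPRC or CD3E), 2 of 4 endothelial (PECAM1 and VWF, but not CDH5 or KDR), 4 of 5 stellate and fibroblast and all 4 cholangiocyte markers. Their log2 ratios ran from -0.42 (VWF) to 0.44 (SOX9), and their part in the ratios below was not tested. ISG15, a ubiquitin-like protein induced by interferon, had intensities of 351 untreated and 8332 with interferon, and all 6 interferon response markers were at least 2-fold higher. In bulk RNA of this kind, fewer cells that express a gene and less RNA per cell cannot be told apart.

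A value was called above the floor if it reached 48.46, the 50th percentile of all intensities of both arrays. Lower values were raised to it before the log2 ratio of interferon over untreated was taken. A gene read by several probe sets was represented by the brightest of them over both arrays. By this criterion 42 of the 71 transporter genes (59.2%) reached the floor on 1 or both arrays and were counted, compared with 67.1% of all genes. Another 29 were below it on both arrays. The floor is not a detection call, and intensities of different probe sets are not compared with each other here.

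No counted transporter gene differed by 1.5-fold between the arrays. The counts at 2-fold were 0 higher and 0 lower, against 0.43% and 0% of all 13270 counted genes. At 1.5-fold they were again 0 and 0, against 0.754% and 0.0829%. With 42 genes, counts of 0 are close to these background shares. At 1.2-fold, a threshold chosen after the values were seen, 2 genes (SLCO1B3 and SLCO4C1) were higher and 3 (ABCC8, SLCO2B1 and ABCB5) lower, where 3.9% of all counted genes were higher and 3.71% lower. The log2 ratios of the 42 genes ran from -0.31 to 0.32. Their median was -0.04, beside 0.03 for all counted genes. All these signs follow the deposited scaling. Centring the arrays on the spiked hybridisation controls, an alternative taken up with earlier results known, subtracts 0.43 from every log2 ratio. It puts all 42 genes below 0 and 7 of them at least 1.5-fold lower, where 10.6% of all counted genes are that much lower. The place of the 42 relative to the other genes stays as it was.

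**Figure D1:**
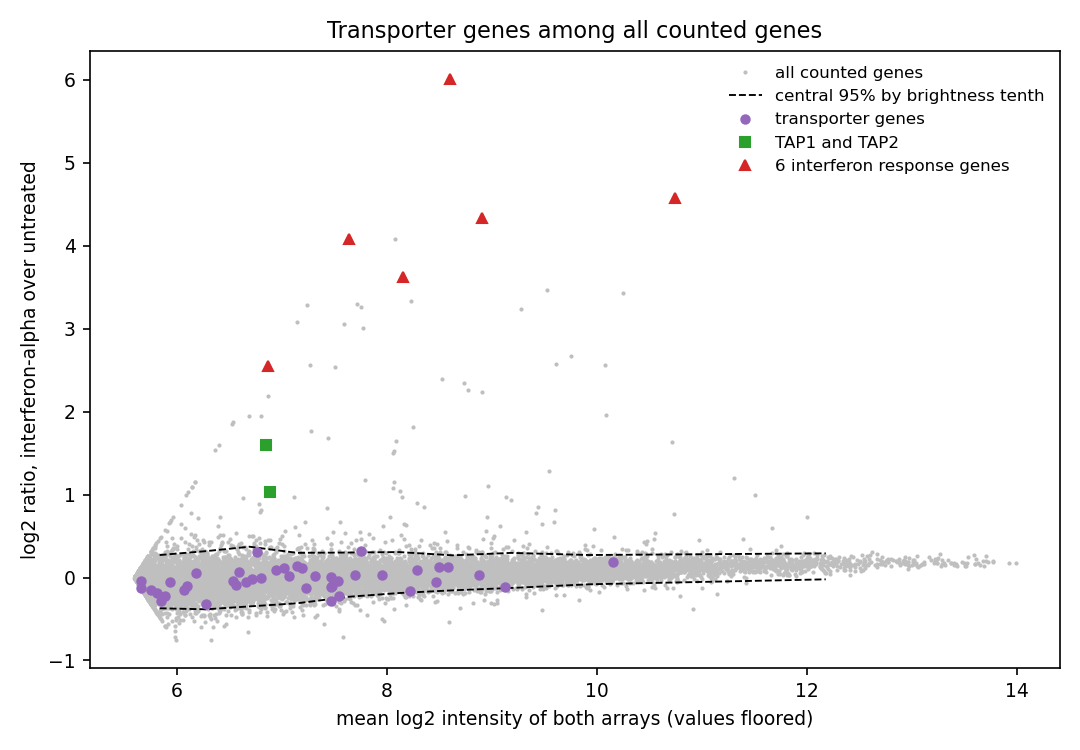
Log2 ratio of interferon-alpha over untreated (y axis) against mean log2 intensity of both arrays (x axis, values floored), 1 point per counted gene, with the central 95% of all genes in each of 10 brightness groups as dashed lines. The transporter genes lie between -0.31 and 0.32, within or next to the dashed lines, while TAP1, TAP2 and the 6 interferon response genes lie at 1.03 or above.

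Because dim probe sets scatter more, each ratio was also set against genes of like brightness. Genes that reached the floor on each array were ranked by mean intensity and divided into 10 groups, and the central 95% of ratios in each group served as a scale. The dimmest group spanned -0.37 to 0.27 and the brightest -0.02 to 0.29. This spread is across genes on the same pair of arrays and is not a replicate error. Of the 41 transporter genes above the floor on both arrays, 1 lay above its range and 1 below, beside 2.51% of all genes in each direction. The gene above was SLCO4C1 and the gene below was SLCO2B1. SLCO2B1 came inside its range with the floor at the 40th percentile (-0.28 against a lower end of -0.28, where ABCD4 and SLC22A23 lay below theirs instead). It also came inside without _x_at and _s_at probe sets (-0.28 against -0.30), where ABCC3 and SLC22A9 lay outside. Against the median of their own brightness group, 19 genes lay higher and 22 lower.

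**Figure D2:**
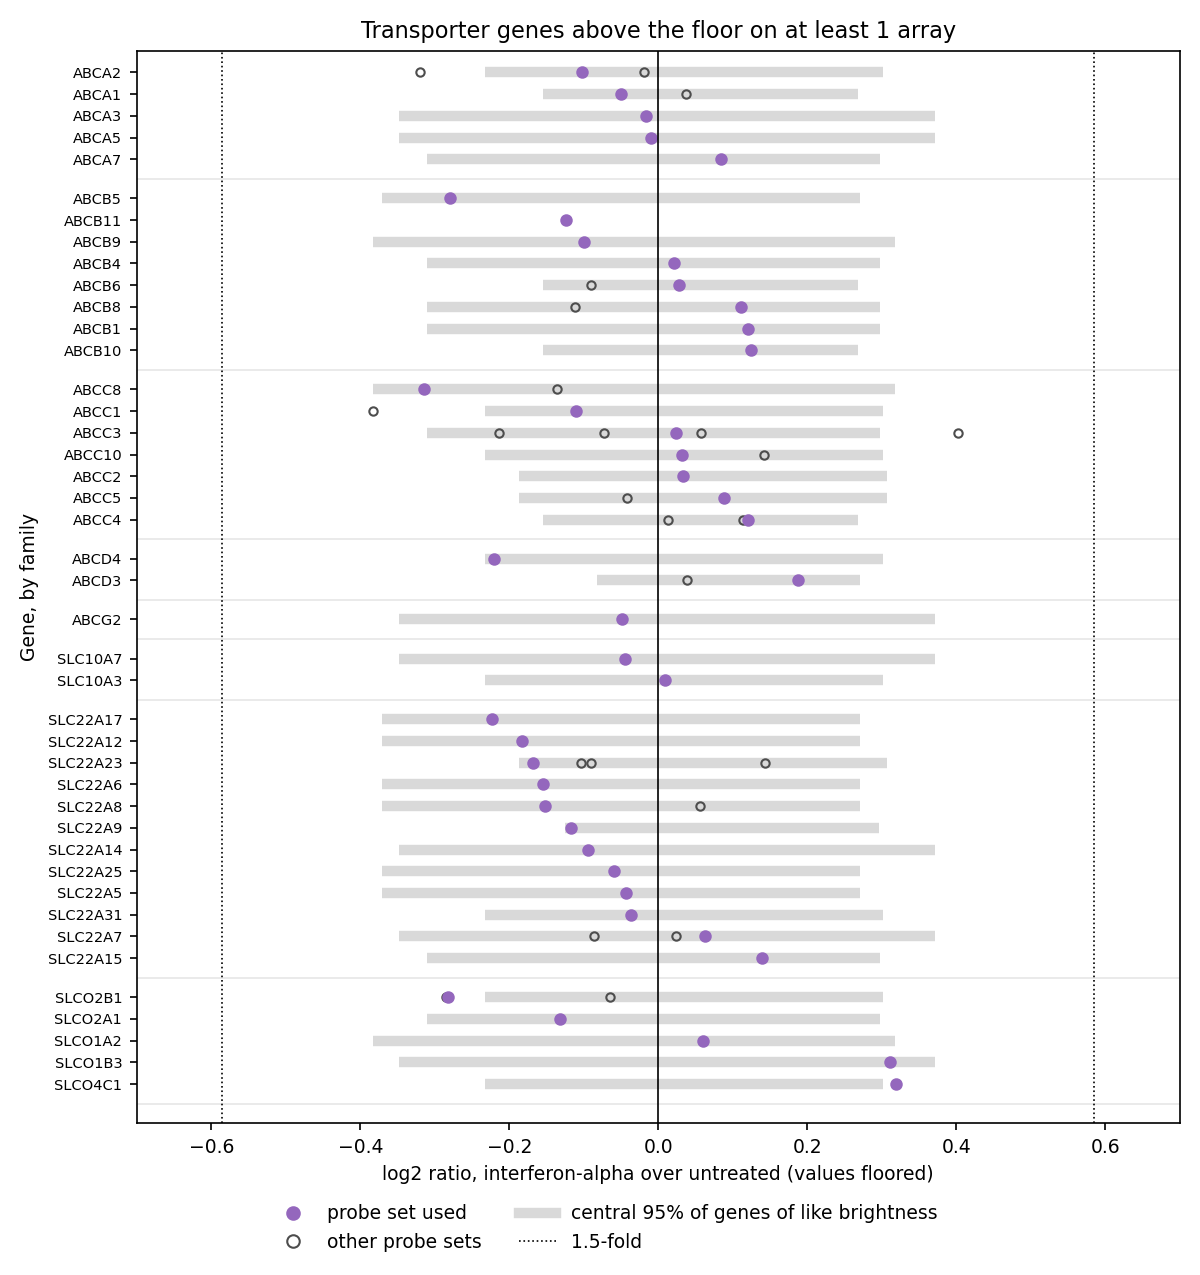
Log2 ratio of interferon-alpha over untreated (x axis, values floored) for the 42 counted transporter genes, grouped by family, with the probe set used (filled), other probe sets that reached the floor on each array (open), the central 95% of genes as bright as the probe set used (grey bars, none for ABCB11, which was above the floor on 1 array) and 1.5-fold (dotted). No filled point reaches a dotted line. SLCO4C1 and SLCO2B1 lie just outside their bars, and the probe sets of ABCC3 spread from -0.21 to 0.40.

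Carriers that bring bile acids and drugs into the hepatocyte were in part below the floor. Of 9 listed uptake genes 7 had a probe set of their own, 5 were counted and 2 were not. SLC10A1 (NTCP), the sodium-dependent bile acid carrier and the receptor of hepatitis B virus, had intensities of 19.5 untreated and 15.7 with interferon, both below the floor. SLCO1B1 (OATP1B1), which takes up bilirubin and statins, was also below it at 12.4 and 13.5. Neither gene has a ratio here.

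SLCO1B3 (OATP1B3), a close relative of SLCO1B1 with overlapping substrates, was above the floor at 97.5 untreated and 121 with interferon. It was 1.24-fold higher (log2 0.31), inside the range of -0.35 to 0.37 for genes of its brightness, and its value rests on 1 probe set. SLCO2B1 (OATP2B1), a carrier of sulfated steroids and drugs, went the other way. Its probe set had 196 untreated and 161 with interferon, or 1.22-fold lower (log2 -0.28), below the range of -0.23 to 0.30. That probe set has the suffix _x_at, which marks possible cross-hybridisation. A second SLCO2B1 probe set without the suffix had 159 and 130 (log2 -0.28), and the remaining one had 95.3 and 91.2 (-0.06), so all 3 lay below 0. SLCO2B1 remained between -0.32 and -0.26 under every alternative other than hybridisation-control centring, which gave -0.71. SLCO1B3 remained between 0.27 and 0.33, and was -0.12 with that centring.

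The remaining uptake carriers differed little. SLCO1A2 (OATP1A2), known from bile duct cells and the blood-brain barrier, had 71.3 and 74.3 (log2 0.06). SLC22A7 (OAT2), an organic anion carrier, had 94.6 and 98.8 (log2 0.06), with its 3 counted probe sets between -0.09 and 0.06. SLC22A9 (OAT7), a liver carrier of sulfated steroids, had 579 and 534, which is 1.08-fold lower (log2 -0.12). The last value is near the lower end, -0.13, of the range for its brightness.

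**Figure D3:**
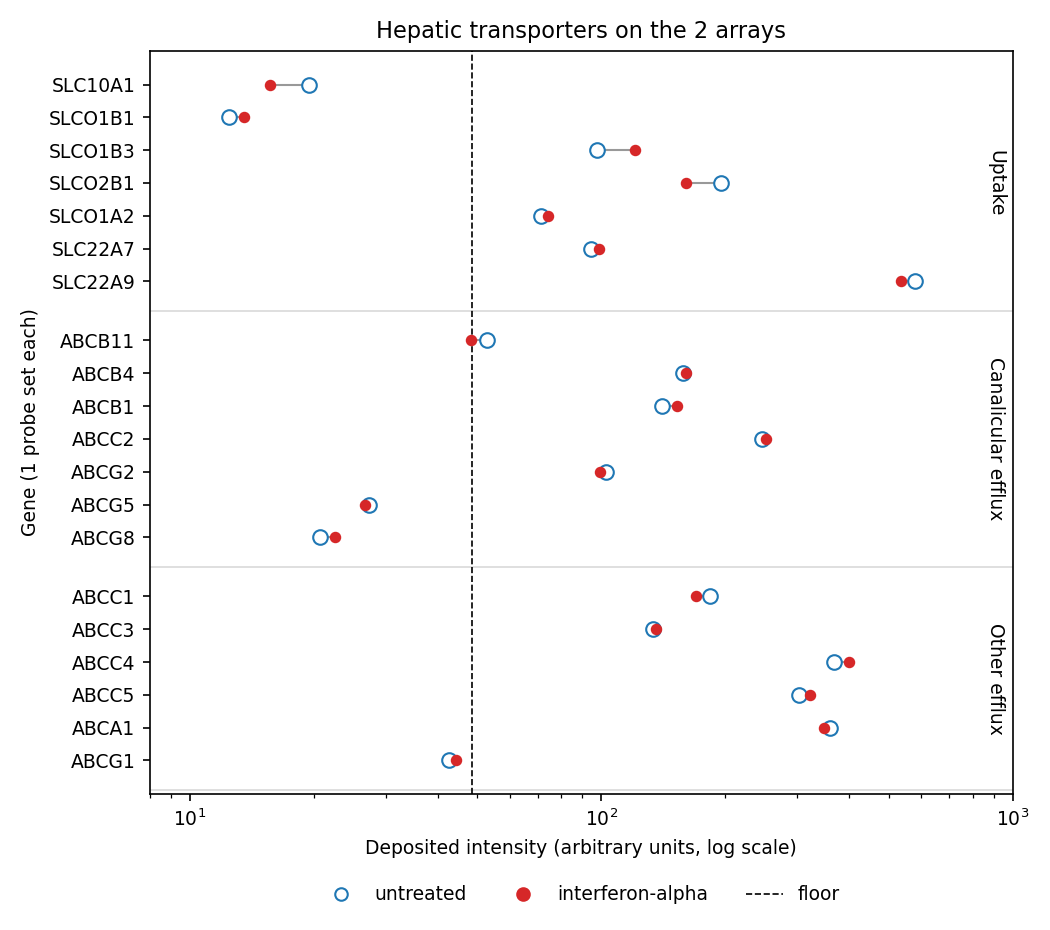
Deposited intensity (x axis, arbitrary units on a log scale) of 20 hepatic transporter genes, 1 probe set each, on the untreated array (open circles) and the interferon-alpha array (filled circles), with the floor of 48.46 as a dashed line. The circles of each gene lie close together, SLC10A1, SLCO1B1, ABCG5, ABCG8 and ABCG1 lie left of the floor, and positions of different genes are not comparable since each probe set has its own response.

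All 7 listed canalicular exporters had a probe set of their own, and 5 were counted. ABCB11 (BSEP), the bile salt export pump, had 52.8 untreated and 48.3 with interferon. It crossed the floor between the arrays, so that only a bound of at least 1.09-fold lower can be given, and both values are at the edge of what was counted. ABCB4 (MDR3), which moves phosphatidylcholine into bile, had 158 and 160 (log2 0.02). ABCB1 (P-glycoprotein), the multidrug exporter next to it in the genome, had 141 and 153 (log2 0.12). A probe set shared by ABCB4 and ABCB1, which enters no count, had 195 and 205 (log2 0.07). Neither gene thus differed by more than 1.09-fold.

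ABCC2 (MRP2), the exporter of conjugated bilirubin, had 245 untreated and 251 with interferon (log2 0.03). ABCG2 (BCRP), which exports sulfated compounds and porphyrins, had 103 and 99.4 (log2 -0.05). ABCG5 and ABCG8, the paired subunits of the biliary cholesterol exporter, were below the floor at 27.3 and 26.6 and at 20.8 and 22.5. The median over the counted canalicular exporters was 0.02 on the log2 scale, and the 4 with both values above the floor lay between -0.05 and 0.12.

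The interferon response factor ISGF3 binds the interferon-stimulated response element, whose core letters are GAAA, any 2 bases, and GAAA again. These letters were searched on both strands of RefSeq promoter windows of GRCh38.p14, 250 bases before to 50 after each gene's start. Of the 71 transporter genes 53 had a window, and 3 of them (5.66%) held a match, close to the 4.38% of all 27305 genes with a window. For scale, 30 of 48 genes at least 2-fold higher with interferon held a match (62.5%). The 3 were ABCC2, ABCA9 and SLCO1A2, the last with its match after the start site. The stretches of 30 bases around the matches of ABCC2 and ABCA9 and of the interferon-induced gene ISG15 are shown to compare their flanks. They are written on the strand of the gene, with the match in capitals, and lie at chr10:99782490-99782519 (ABCC2), chr17:69061080-69061109 (ABCA9) and chr1:1013380-1013409 (ISG15).
ABCC2: atgtccttagGAAAATGAAAgactgtgcac
ABCA9: aggaaacaaaGAAATGGAAAacagcaaaga
ISG15: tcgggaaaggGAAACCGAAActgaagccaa
The match of ABCC2 begins 140 bases before the start of its RNA, that of ABCA9 172 bases and that of ISG15 107 bases before. A second match of ISG15 overlaps the one shown and begins 113 bases before the start. With these letters in their windows, ABCC2 had a log2 ratio of 0.03 and ABCA9, a member of a lipid transporter family, was below the floor at 14.8 and 13.8. A match is a description of the letters and not a measured binding site.

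Exporters on the basolateral membrane and of cholesterol lay between -0.11 and 0.12 on the log2 scale. Of 7 listed genes 6 had a probe set of their own and 5 were counted. ABCC4 (MRP4), which exports bile acids and cyclic nucleotides, had 369 untreated and 401 with interferon, or 1.09-fold higher (log2 0.12). Its 3 probe sets above the floor lay between 0.01 and 0.12. ABCC5 (MRP5), an exporter of cyclic nucleotides, had 302 and 321 (log2 0.09), but its other counted probe set had -0.04. ABCA1, which loads cholesterol onto apolipoprotein A-I, had 360 and 348 (log2 -0.05), and its other counted probe set had 0.04. ABCG1, which passes cholesterol to HDL, was below the floor at 42.6 and 44.3.

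The probe sets of ABCC1 and ABCC3 did not give like ratios. For ABCC1 (MRP1), an exporter of glutathione conjugates, the probe set used had 184 and 170 (log2 -0.11). Its other probe set had 137 and 105 (log2 -0.38), the lowest ratio of any transporter probe set that reached the floor on each array. For ABCC3 (MRP3), an exporter of glucuronides on the basolateral membrane, the probe set used had 134 and 136 (log2 0.02). Its 5 probe sets ran from -0.21, at 62.0 and 53.5, to 0.40, at 72.4 and 95.7. The upper value is the highest of any transporter probe set that did so, and it becomes the value of ABCC3 when probe sets ending in _x_at or _s_at are left out. The direction of ABCC3 therefore depends on the probe set chosen.

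Over all transporter genes, 65 of 143 probe sets reached the floor on each array. At 1.2-fold 3 of these were higher and 6 lower, beside 4.65% and 3.24% of all such probe sets. The 3 belonged to ABCC3, SLCO1B3 and SLCO4C1, and the 6 to SLCO2B1 (2 probe sets), ABCA2, ABCB5, ABCC1 and ABCC8. In the 15 transporter genes with several such probe sets, the range of the log2 ratio within a gene had a median of 0.18, beside 0.14 for 5911 genes. All probe sets had the same sign in 7 of the 15 (46.7%), beside 51.8% of those genes. A robust standard deviation of the log2 ratios of all genes above the floor on both arrays was 0.13. Of the 41 transporter genes with both values above the floor, 27 (65.9%) lay within that distance of 0, beside 64.2% of all genes.

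ABC transporters of organelles were counted in 6 of 7 genes with a probe set, from 9 listed. ABCD3 (PMP70), which carries fatty acids and bile acid intermediates into peroxisomes, had 1064 untreated and 1212 with interferon. It was 1.14-fold higher (log2 0.19), within -0.08 to 0.27 for its brightness, and its other probe set had 574 and 589 (log2 0.04). ABCD4, which takes part in the release of vitamin B12 from lysosomes, had 201 and 173, or 1.16-fold lower (log2 -0.22), next to the lower end of its range at -0.23. The peroxisomal relative ABCD2 was below the floor at 8.18 and 6.91.

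Half-transporters of the ABCB group differed less. ABCB10, a mitochondrial inner membrane protein needed for heme synthesis, had 345 and 376 (log2 0.12). ABCB8, also mitochondrial, had 125 and 135 (log2 0.11), but its other counted probe set had a log2 ratio of -0.11. ABCB6, linked to porphyrin transport, had 467 and 476 (log2 0.03), but its other counted probe set had -0.09. The ratios of the probe sets used for these 3 genes lie within the ranges for genes of their brightness. The lysosomal peptide transporter ABCB9 had 70.9 and 66.2 (log2 -0.10).

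Other ABC genes included the lowest ratio of all. ABCC8, the sulfonylurea receptor of the potassium channel of beta cells, had 86.8 untreated and 69.8 with interferon, or 1.24-fold lower (log2 -0.31). The value is within the range of -0.38 to 0.32 for its brightness, and its second probe set gave -0.14. ABCB5 had 63.5 and 52.3 (log2 -0.28) on the only 1 of its 4 probe sets above the floor. Both genes were dim, so that their ratios rest on intensities near the floor. ABCC10 (MRP7) had 205 and 210 (log2 0.03).

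In the ABCA group, whose members move lipids, 5 of 11 genes were counted, with log2 ratios from -0.10 to 0.08. ABCA2, a lysosomal lipid transporter, had 184 and 172 (log2 -0.10), and its 3 counted probe sets ran from -0.32 to -0.02. ABCA3, the surfactant lipid transporter of the lung, had 106 and 104 (log2 -0.02). ABCA5 and ABCA7 had -0.01 and 0.08. Below the floor were ABCA4, the retinal transporter, at 46.9 and 35.4, and ABCA6, ABCA8, ABCA9, ABCA12 and ABCA13. ABCC9, ABCC11, ABCC12 and ABCG4 were also below it, ABCG4 closely at 45.1 and 48.1.

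Of the 18 SLC22 genes 12 were counted, and 10 of the 12 had a log2 ratio below 0, with a family median of -0.11. Of all genes above the floor on both arrays 38% had a ratio below 0. The SLC22 genes were mostly dim, with 8 of the 12 in the 3 dimmest of the 10 brightness groups, where 57.2% of all genes were below 0. Over all families, 14 of the 17 transporter genes in those 3 groups (82.4%) were below 0. Against the median of their own brightness group, 9 of the 12 SLC22 genes lay lower and 3 higher. The part of brightness in these counts was not tested further.

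Among the organic anion carriers of the kidney, SLC22A6 (OAT1) had 57.2 and 51.4 (log2 -0.15) and SLC22A8 (OAT3) 71.0 and 63.9 (-0.15). The second counted SLC22A8 probe set had 0.06. The urate carrier SLC22A12 (URAT1) had 59.8 and 52.7 (log2 -0.18). SLC22A5 (OCTN2), the carnitine carrier, was just above the floor at 51.3 and 49.8 (log2 -0.04). It was the only counted member of 4 carnitine and organic cation carriers with a probe set, since SLC22A2 (17.6 and 18.2), SLC22A4 (10.3 and 10.6) and SLC22A16 (36.8 on both arrays) were below the floor.

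Less studied SLC22 members gave the ends of the family. SLC22A17, described as a receptor for lipocalin 2, had 64.0 and 54.8, or 1.17-fold lower (log2 -0.22). SLC22A23 had 316 and 281 (log2 -0.17), although its 4 probe sets ran from -0.17 to 0.14. SLC22A15 had 135 and 148, or 1.10-fold higher (log2 0.14), the highest in the family. SLC22A14, SLC22A25 and SLC22A31 had -0.09, -0.06 and -0.04. SLC22A11, SLC22A13 and SLC22A24 were below the floor on both arrays.

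Beyond NTCP, the SLC10 family had 2 of 5 genes counted. SLC10A3 had 177 untreated and 178 with interferon (log2 0.01), and SLC10A7 had 93.9 and 91.1 (log2 -0.04). SLC10A2 (ASBT), the bile acid carrier of the ileum, was below the floor at 11.9 and 12.3, as was SLC10A4 at 20.2 and 21.1. The 2 sodium-dependent bile acid carriers of the family, SLC10A1 and SLC10A2, thus gave no ratio.

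Outside the hepatic list, the SLCO family held the highest ratio among the transporters. SLCO4C1, a carrier of cardiac glycosides and thyroid hormone known from the kidney, had 193 untreated and 241 with interferon, or 1.25-fold higher (log2 0.32). The upper end of the range for its brightness was 0.30. Its second probe set was below the floor at 13.8 and 19.1, so the value rests on 1 probe set. It lay between 0.28 and 0.34 under the alternatives in which that probe set was used, other than hybridisation-control centring, which gave -0.11. SLCO2A1, the prostaglandin carrier, had 157 and 143 (log2 -0.13). SLCO1C1, SLCO3A1, SLCO4A1, SLCO5A1 and SLCO6A1 did not reach the floor.

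The 5 rule-matched genes that code for no transporter protein were 4 pseudogenes and the antisense RNA SLCO4A1-AS1. ABCC6P1 had 172 and 199 (log2 0.21), and its sequence is close to that of its parent gene, so that its signal is uncertain. ABCA11P had 191 and 187 (log2 -0.03) and SLCO4A1-AS1 61.1 and 63.4 (log2 0.05). ABCA17P and ABCC13 were below the floor.

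Regulators and synthesis enzymes that share the work of these transporters were examined from lists chosen with earlier results of these data known. Of 16 listed regulators of bile acid and drug transport, 11 had a probe set and 10 were counted, with log2 ratios from -0.13 to 0.22, none at 1.5-fold. NR0B2 (SHP), the repressor through which bile acids dampen their own synthesis, had 502 and 583 (log2 0.22). NR1H3 (LXR-alpha), which drives ABCA1 and ABCG1, had a log2 ratio of -0.02. RXRA, the shared partner of these nuclear receptors, had 1137 and 1136. Of 15 genes of bile acid synthesis 13 had a probe set, 8 were counted and none reached 1.5-fold. CYP7A1, its rate-limiting enzyme, was below the floor at 7.45 and 9.08.

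Among 19 partner genes outside the symbol rule, a list chosen with earlier results of these data known, 17 were counted. Of these 2 were at least 1.5-fold higher, beside 0.754% of all counted genes, which in such a list is no measure of an excess. Both belong to the ABC superfamily under other names. TAP1, which with TAP2 pumps peptides into the endoplasmic reticulum for MHC class I, had 66.3 untreated and 201 with interferon, or 3.02-fold higher, and TAP2 had 83.0 and 170, or 2.04-fold. ATP8B1, the canalicular phospholipid flippase, came next at 74.7 and 100.2 (1.34-fold, log2 0.42). The ATP8B1 probe set is dim and has the suffix _x_at, which marks possible cross-hybridisation. The basolateral bile acid exporter subunits SLC51A and SLC51B had log2 ratios of -0.06 and -0.14. On the scale of genes of like brightness, TAP1, TAP2 and ATP8B1 lay above the central 95% and SLC51B below it. Of all genes 2.51% lay outside in each direction, with the same limit from the choice of the list. The soluble ABC proteins ABCE1, ABCF1, ABCF2 and ABCF3 lay between 0.07 and 0.14.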

How the data were processed

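Deposited values were linear intensities that the authors made with GCOS, per the submitters' processing notes. How background, probe summary and scaling were handled is not stated in the labels. The table holds 54675 probe sets, 62 of them controls. Probe sets assigned to 1 gene (41091) were used, and those with several genes (1801) or none named (11721) were not. Symbols are those of the platform annotation. The design provided 1 array per group, so no test was made and the number of arrays limits the precision. Log2 ratios were taken from intensities floored at 48.46, with the brightest probe set per gene. The alternatives were floors at the 40th and 60th percentiles and at 100, a pseudocount of 16, other probe set choices, current symbols, and median, quantile, lowess and hybridisation-control scaling. The procedure was tested on simulated data, with upward differences of at least 1.5-fold in genes well above the floor. Smaller or downward differences, and differences in dim genes, were not simulated. Named genes were all listed hepatic transporters, the 5 highest and 5 lowest ratios, and genes that crossed the floor or whose probe sets differed by 0.5 or more. Other members are given as examples of their family. Members, lists and alternatives were chosen with earlier results of these data known. Computation used Python 3.11.15, pandas 2.3.3, numpy 2.4.6 and statsmodels 0.14.6.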

Additional observations from a re-analysis of the deposited data

How the results depend on the processing

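The counts of transporter genes at least 1.5-fold and 2-fold higher, and 2-fold lower, were 0 under all alternatives. The count above the floor ran from 28 (floor at 100) to 51 (40th percentile). With quantile scaling the median log2 ratio of the transporter genes was -0.04, beside -0.02 for all counted genes. These medians were -0.03 and -0.01 with lowess scaling, and -0.01 and 0.06 with median scaling. Centring on the hybridisation controls moved the median log2 ratio of the transporter genes to -0.47, and that of all counted genes to -0.39. The family medians became -0.44 for ABCA, -0.40 for ABCB and ABCC, -0.44 for ABCD, -0.48 for ABCG, -0.45 for SLC10A, -0.53 for SLC22A and -0.37 for SLCO. With this centring 7 transporter genes were at least 1.5-fold lower, beside 10.6% of all counted genes. The shift is the same for every gene by construction. With _x_at and _s_at probe sets left out, the ABCD median was 0.19, since only ABCD3 was left, and the SLCO median was -0.13, since SLCO1A2 and SLCO4C1 dropped out and SLCO2A1 became the middle value. With the floor at the 40th percentile 2 genes, in place of 1, lay below the central 95%. These were ABCD4 and SLC22A23, and SLCO2B1 came inside, because the larger set of genes moved the borders of the brightness groups. No paired analysis was possible because each group has 1 array. Leaving out a replicate was not possible for the same reason. Signals near the floor limit ABCB11, SLC22A5 and the other dim members.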

Other observations

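Some intensities were identical on both arrays to the last deposited digit. This held for 9 of 143 transporter probe sets (6.29%) and for 4.32% of all probe sets. None of the 65 transporter probe sets that reached the floor on each array was among them. Identical values did occur above the floor in other genes, such as SLC47A1 at 343.42 on both arrays. A further 7 transporter probe sets (4.9%) differed between the arrays by a whole multiple of 0.5 intensity units within a tolerance of 0.0005, as did 3.96% of all probe sets. Of them 6 were among the 65 (9.23%), and they are the probe sets used for ABCB6, ABCB10, ABCC1, ABCC5, ABCC8 and SLCO1A2. ABCB6, for example, had 467.316 and 476.316. For neither pattern was the share over all probe sets above the floor on each array taken, so the counts among the 65 have no like comparison. The between-array processing behind the deposited values is not stated, and its part in these ratios was not tested. These values were looked at after the ratios were known.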
